A study of Mus musculus with 4 samples.

Results

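The transcript of the tumour suppressor p53 (Trp53) and those of 9 genes known as p53 targets or partners (Mdm2, Cdkn1a, Trp53inp1, Ccng1, Phlda3, Sesn2, Zmat3, Aen and Gtse1) were followed in DN3 thymocytes. The 10 genes were taken by symbol out of 23285 genes with a value per library, and all 10 were found. DN3 thymocytes are CD4-negative, CD8-negative T cell precursors that express CD25 and rearrange their T cell receptor beta genes. They had been sorted from irradiated mice that had received fetal liver cells 16 weeks earlier, and both genotypes share this transplantation. The Gata3(g/g) libraries came from cells with the genotype that the labels name a Gata3(g/g) hypomorph, and the WT libraries from wild type cells. All are labelled C57BL/6. The promoter or mutation behind the g allele, the age of the animals, whether animals were pooled and how host cells were kept out of the sort are not stated in the sources used here.

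Each genotype had 2 libraries, 1 in each of 2 sequencing runs that the labels identify, called run 1 and run 2. Replicate 1 of each genotype was in run 1 and replicate 2 in run 2. The libraries held 14331705 to 26901913 fragments assigned to genes. The labels do not say whether the replicates were separate animals, and p-values therefore measure only the spread between these libraries, which may be technical. Dntt and Il2ra, defining genes of the stage, stood at 982 to 1047 and 492 to 569 FPKM (fragments per kilobase of transcript, scaled to the size of the library) in Gata3(g/g), against 747 to 789 and 261 to 277 FPKM in WT. Of the 8 genes listed for the stage, Il2ra and Il7r rose in Gata3(g/g) by edgeR with the run as a block and 6, Dntt among them, did not pass. Rag1, a recombinase gene, stood at 117 and 83.1 FPKM in Gata3(g/g), against 204 and 83.1 FPKM in WT, and the log2 fold changes of the 8 ran from -0.40 for Rag1 to 0.98 for Il2ra, 4 of them above 0. Gata3 itself stood at 119.9 and 96.1 FPKM where the label names the hypomorph, against 62.4 and 58.5 FPKM in WT, so the targeted transcript was the higher one there. Gene totals do not tell an altered allele's product from an intact one, so Gata3 did not check the labels, and every direction below is that of the libraries labelled Gata3(g/g).

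p53 is a transcription factor that cells keep at a low protein level until DNA damage or another stress stabilises it. It binds paired half-sites near its targets and raises genes for cell cycle arrest, DNA repair and apoptosis, among them Mdm2, whose product marks p53 for degradation and so closes a feedback loop. In mouse thymocytes the breaks made during V(D)J recombination can engage p53, and p53 restrains DN3 cells that have not assembled a working pre-T cell receptor. Because p53 is controlled largely at the protein level, the level of Trp53 RNA is not a measure of p53 activity.

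Matches to the paired half-sites of p53 near the starts of these genes are shown because p53 is known to raise its targets through such sequences. RefSeq promoter windows of GRCm38.p6 (mm10), running from 250 bases before to 50 bases after an annotated start, were matched for 8 of the 10 genes, in 11 windows; Trp53inp1 and Zmat3 were not matched. The p53 full-site consensus, 2 half-sites of 10 bases with no spacer, was searched allowing 2 mismatches, and reads the same on both strands. It was met in 3 of the 11 windows, 1 each for Cdkn1a, Ccng1 and Gtse1, each time with 1 mismatch. Of 32851 windows of the same length, 262 (0.798%) held a match with at most 2 mismatches, and 29 (0.0883%) held one with at most 1. The closest stretch in the windows of Trp53 and Aen had 3 mismatches, and in those of Mdm2, Phlda3 and Sesn2 it had 5. The 3 matches are printed in the direction of transcription with 20 bases on each side, the full site in capitals.
Cdkn1a: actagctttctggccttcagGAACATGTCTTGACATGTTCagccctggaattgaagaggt
Ccng1: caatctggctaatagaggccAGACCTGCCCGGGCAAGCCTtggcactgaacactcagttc
Gtse1: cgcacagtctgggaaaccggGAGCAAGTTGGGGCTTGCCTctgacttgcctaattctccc
The Cdkn1a site lies at chr17:29090928-29090947 on the plus strand, 51 bases before the more upstream of the 2 annotated starts. The Ccng1 site lies at chr11:40755462-40755481 on the minus strand, 195 bases before its start. The Gtse1 site lies at chr15:85859945-85859964 on the plus strand and begins 1 base before the more downstream of its 2 annotated starts. These matches are descriptions of letters in a window, and no binding was measured. Sequence outside the windows was not searched, so a window without a match does not show that a gene lacks a p53 site.

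Trp53inp1 was the one gene of the set that rose in Gata3(g/g), by 1.66-fold in the model that takes account of the sequencing run. Trp53inp1 encodes a stress-induced nuclear protein that promotes phosphorylation of p53 and autophagy. It stood at 19.9 and 22.5 FPKM in Gata3(g/g), against 13.7 and 12.0 FPKM in WT (replicates 1 and 2), from 1714 to 5491 fragments. Both Gata3(g/g) libraries lay above both WT libraries, with means of 21.2 ± 1.81 FPKM in Gata3(g/g) and 12.8 ± 1.25 FPKM in WT (SD, n = 2 each). By edgeR's quasi-likelihood test with the run as a block, the log2 fold change of Trp53inp1 was 0.73 ± 0.129 (SE), and the Benjamini-Hochberg adjusted p over 10224 genes was 0.00186. The difference was 0.55 in run 1 and 0.90 in run 2 on the log2 scale, the same direction in both. The model without the block also gave 0.73, but with an edgeR adjusted p of 0.894. With the block, the adjusted p was 0.00114 by DESeq2 and 0.175 by limma on log2(FPKM + 1). In the authors' deposited table the q-value of Trp53inp1 was 0.00577. Trp53inp1 occupies chr4:11156441-11174377 of mm10, on the plus strand in GENCODE M21. In bulk RNA, fewer cells of a type and less RNA per cell cannot be told apart.

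Read against the whole table, 1 of the 8 tested genes of the set passed with the block, and it was higher, where 6.9% of all genes passed, 3.9% as higher and 2.99% as lower. Trp53inp1 ranked 189 of 10224 genes by its p in that model, and 5.42% of all genes had a larger absolute log2 fold change. Without the block 0 of the 8 passed, as did 0% of all genes by edgeR, with 1 of the 8 and 393 of all genes at an unadjusted p under 0.05. The model without the block gave 88 calls with DESeq2 (0.861%) and 5 with limma, none of them in the set. The authors' deposited table called 4.1% of the genes it tested. The genotypes did not overlap for 2 of the 8 genes, Trp53inp1 and Mdm2, and for 29% of all genes tested. The median log2 fold change of the 8 genes was 0.05 with the block, against 0.01 for all genes.

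**Figure D1:**
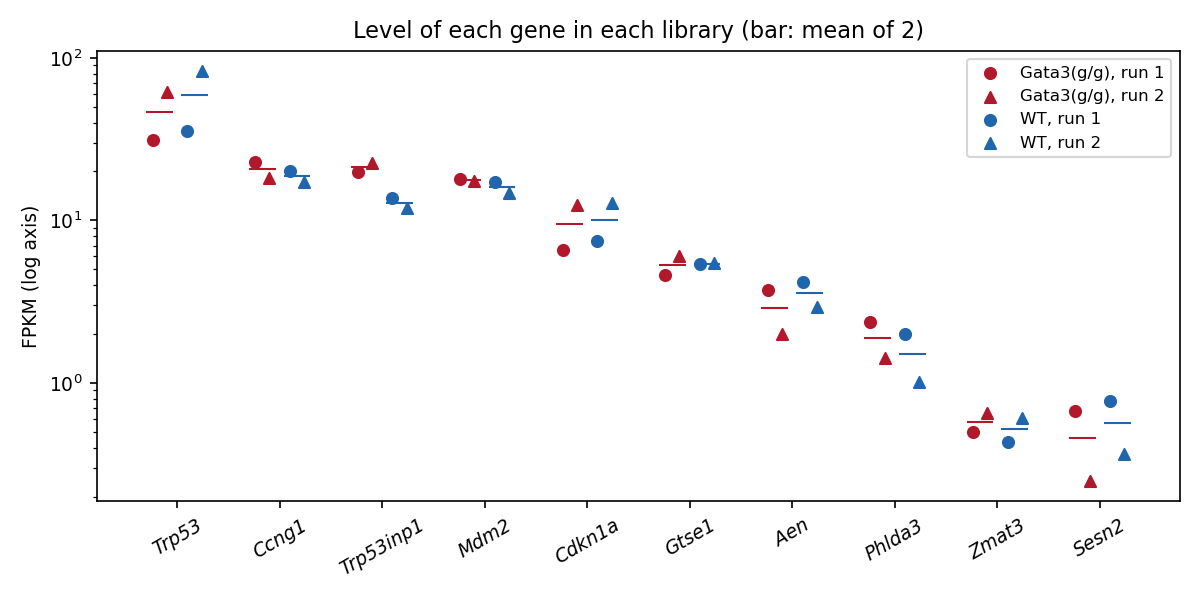
FPKM (log axis) of Trp53 and the 9 other genes in each library, with Gata3(g/g) in red to the left of WT in blue, circles for run 1, triangles for run 2 and a bar at each genotype's mean of 2 libraries. Trp53inp1 is set apart by genotype, at 19.9 and 22.5 FPKM in Gata3(g/g) against 13.7 and 12.0 FPKM in WT, whereas Trp53 and Cdkn1a are set apart by run.

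Trp53 was the most abundant transcript of the set in every library, at 31.3 and 61.2 FPKM in Gata3(g/g), against 35.5 and 82.8 FPKM in WT. The genotypes overlapped, because both libraries of run 2 were higher than both of run 1. Within each run the Gata3(g/g) library was the lower, with log2 differences of -0.16 in run 1 and -0.45 in run 2. The log2 fold change with the block was -0.30 ± 0.126 (SE), with a 95% interval of -0.57 to -0.036 and an adjusted p of 0.176 by edgeR, so Trp53 did not pass. That interval, like those given for the other genes, rests on a spread that edgeR pools over genes. Without the block, which mixes the runs, leaving out 1 library turned the direction, to 0.050 without Gata3(g/g) replicate 1 and to 0.41 without WT replicate 2. GENCODE M21 lists a pseudogene of Trp53 (Trp53-ps), for which the deposited table has no row, so fragments shared with it could have been counted for Trp53. Trp53 occupies chr11:69580359-69591873 (mm10, plus strand).

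The feedback regulators of p53 did not pass between the genotypes. Mdm2, the ubiquitin ligase gene, stood at 18.0 and 17.4 FPKM in Gata3(g/g), against 17.2 and 14.7 FPKM in WT. Both Gata3(g/g) libraries were higher than both WT libraries, by a small margin between 17.4 and 17.2 FPKM. With the block Mdm2 had a log2 fold change of 0.15 ± 0.130 (SE), with a 95% interval of -0.12 to 0.43 and an adjusted p of 0.549 by edgeR. Ccng1 encodes cyclin G1, which brings a phosphatase to MDM2. It was at 22.8 and 18.3 FPKM in Gata3(g/g), against 20.2 and 17.2 FPKM in WT, and the genotypes overlapped. For Ccng1 the log2 fold change was 0.14 ± 0.124 (SE), with an interval of -0.12 to 0.40 and an adjusted p of 0.573 by edgeR with the block. A p that misses the threshold does not show that the genotypes were alike; for Mdm2 and Ccng1 the intervals end at log2 fold changes of 0.43 and 0.40.

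Genes of cell cycle arrest and division also did not pass. Cdkn1a encodes p21, the inhibitor of cyclin-dependent kinases through which p53 halts the cell cycle. It stood at 6.58 and 12.4 FPKM in Gata3(g/g), against 7.51 and 12.7 FPKM in WT. As with Trp53, the run 2 libraries were the higher ones in both genotypes, and the genotypes overlapped. The log2 fold change of Cdkn1a was -0.11 ± 0.145 (SE), with an interval of -0.41 to 0.20 and an adjusted p of 0.731 by edgeR with the block. GENCODE M21 places exons of an unconfirmed transcript on the opposite strand over 273 bases of Cdkn1a exons, and without a stated strand setting its reads could not be told from those of Cdkn1a. Gtse1 encodes a microtubule-binding protein of the S and G2 phases that, in human cells, carries p53 out of the nucleus. Its FPKM were 4.63 and 6.01 in Gata3(g/g), against 5.36 and 5.45 in WT. The Gata3(g/g) library was the lower in run 1, by 0.19 on the log2 scale, and the higher in run 2, by 0.13. Of the 8 genes, Gtse1 was the one whose difference had opposite signs in the runs (-0.03 ± 0.160 on the log2 scale, SE, with an edgeR adjusted p of 0.929 under the block). With the block and no scaling beyond total counts, Gtse1 was at 0.014 instead.

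The death and survival effectors were expressed at low levels. Aen encodes a nuclease that digests DNA and RNA in apoptosis, and it stood at 3.76 and 1.99 FPKM in Gata3(g/g), against 4.18 and 2.93 FPKM in WT. The log2 fold change of Aen was -0.32 ± 0.208 (SE), with an interval of -0.76 to 0.12 and an adjusted p of 0.417 by edgeR with the block. Phlda3, whose product competes with the kinase AKT for membrane lipids, had 2.37 and 1.42 FPKM in Gata3(g/g), against 1.998 and 1.01 FPKM in WT. For both genes the genotypes overlapped and the run 1 libraries were the higher. Phlda3 rested on 36 to 163 fragments, and the difference of 0.36 ± 0.325 on the log2 scale (SE) had an interval of -0.33 to 1.04 and an edgeR adjusted p of 0.582 under the block.

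Sesn2 and Zmat3 averaged under 1 FPKM and were left out of the fit on low values. Sesn2 encodes sestrin 2, which restrains the growth kinase complex mTORC1, and it was at 0.671 and 0.250 FPKM in Gata3(g/g), against 0.771 and 0.367 FPKM in WT. It rested on 22 to 88 fragments a library. Zmat3, a zinc-finger RNA-binding protein gene, was at 0.497 and 0.652 FPKM in Gata3(g/g), against 0.435 and 0.604 FPKM in WT. In a fit with no filter and with the block, the log2 fold change of Sesn2 was -0.35 ± 0.415 (SE) and that of Zmat3 0.15 ± 0.238 (SE), with an adjusted p of 0.999 for each by edgeR.

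**Figure D2:**
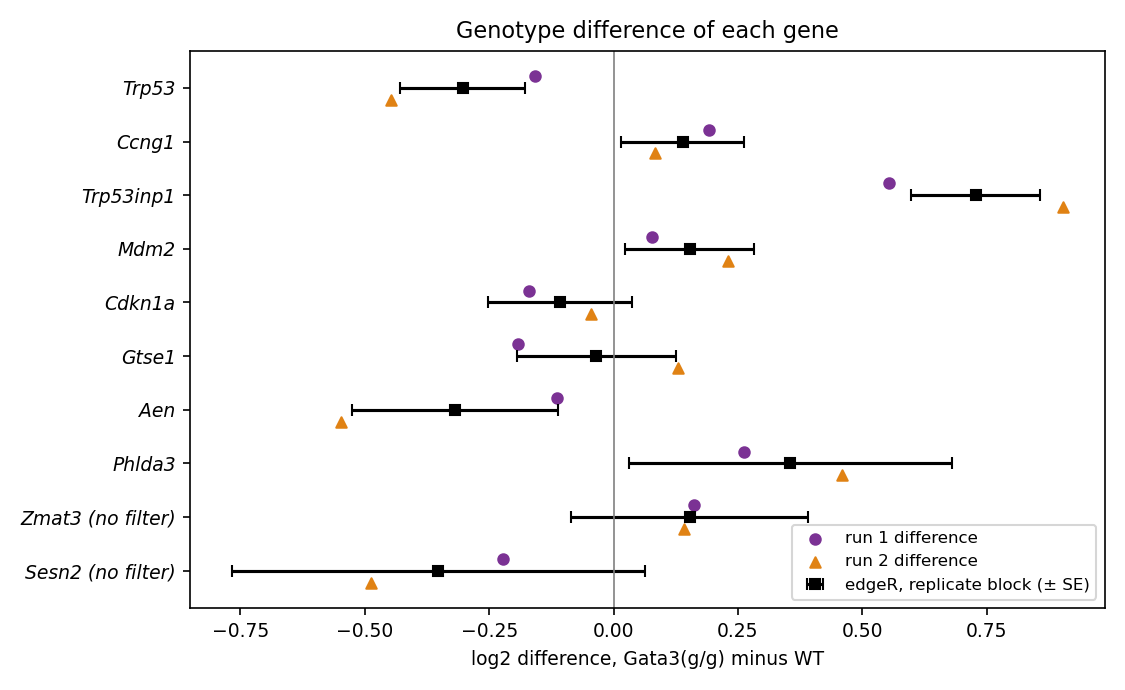
Log2 difference of Gata3(g/g) minus WT for each gene, with black squares for the edgeR log2 fold change with the replicate block (bars are ± SE), circles for the difference in log2 CPM within run 1 and triangles for that within run 2; Zmat3 and Sesn2 come from the fit with no filter. Trp53inp1 stands at 0.73, with 0.55 in run 1 and 0.90 in run 2, and the squares of the other 9 genes lie between -0.35 and 0.36.

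The order of the levels was similar in the 4 libraries. By FPKM, which is per length, Trp53 came first and averaged 52.7 over the 4 libraries, above 95.5% of all genes. Ccng1 (19.7), Trp53inp1 (17.03) and Mdm2 (16.8) followed, and the ranges of these 3 over the libraries overlapped. Cdkn1a (9.81), Gtse1 (5.36), Aen (3.21) and Phlda3 (1.70) came next by mean FPKM and stood in that order within each of the 4 libraries. The ranges of Cdkn1a and Gtse1 did not overlap, nor did those of Gtse1 and Aen, whereas those of Aen and Phlda3 did. Zmat3 (0.547) and Sesn2 (0.515) came last and changed places between runs. Trp53inp1 had rank 3 and 2 of the 10 in the Gata3(g/g) libraries (replicates 1 and 2), and rank 4 and 5 in the WT libraries. Set against Mdm2 in the same library, Trp53inp1 stood at 1.11 and 1.29 times the FPKM in Gata3(g/g), and at 0.796 and 0.811 times in WT.

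Trp53 and Cdkn1a were higher, and Aen lower, in the libraries of run 2, the sequencing run that the labels give and that goes with the replicate number. With genotype in the model, 3 of the 8 tested genes differed between the runs, 2 higher in run 2 and 1 lower, a share near that of all genes, of which 34.8% differed, 17.5% higher and 17.3% lower. FPKM of 6 of the 8 genes did not overlap between the runs, nor did those of 60.7% of all genes. Trp53 was 2.16-fold higher in run 2 (1.11 ± 0.128 on the log2 scale, SE, with an edgeR adjusted p of 9.66e-06), by 0.97 in Gata3(g/g) and 1.26 in WT on the log2 CPM scale. Only 2.87% of all tested genes had a larger rise. Cdkn1a was 1.81-fold higher in run 2 (0.86 ± 0.145, SE, adjusted p = 0.000333). Aen was lower in run 2, at -0.69 ± 0.209 on the log2 scale (SE), with an edgeR adjusted p of 0.0171.

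The other 5 tested genes did not pass between the runs. By edgeR, run 2 over run 1 came to -0.84 on the log2 scale for Phlda3 (adjusted p = 0.0569), -0.25 for Ccng1 (0.124), -0.11 for Mdm2 (0.535) and 0.22 for Gtse1 (0.297). In the fit with no filter, Sesn2 was lower in run 2, at -1.38 on the log2 scale (adjusted p = 0.00725). For Trp53inp1 the run log2 fold change was 0.014 (adjusted p = 0.944), the closest to 0 of the 8. The ratio of Trp53 to Mdm2 FPKM was 1.74 and 3.51 in Gata3(g/g), and 2.06 and 5.61 in WT (run 1 and run 2), so that it was higher in run 2 in both genotypes. What else differed between the runs is not given in the labels. Beside these values, the summed FPKM of 8 immediate-early genes, such as Fos, was 464 and 53.4 in Gata3(g/g), against 661 and 42.3 in WT. That of 7 erythroid genes was 2.34 and 588 in Gata3(g/g), against 1.24 and 460 in WT. None of the genes on these lists was at 0 in all libraries. Their part in the run differences of Trp53, Cdkn1a and Aen was not tested.

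**Figure D3:**
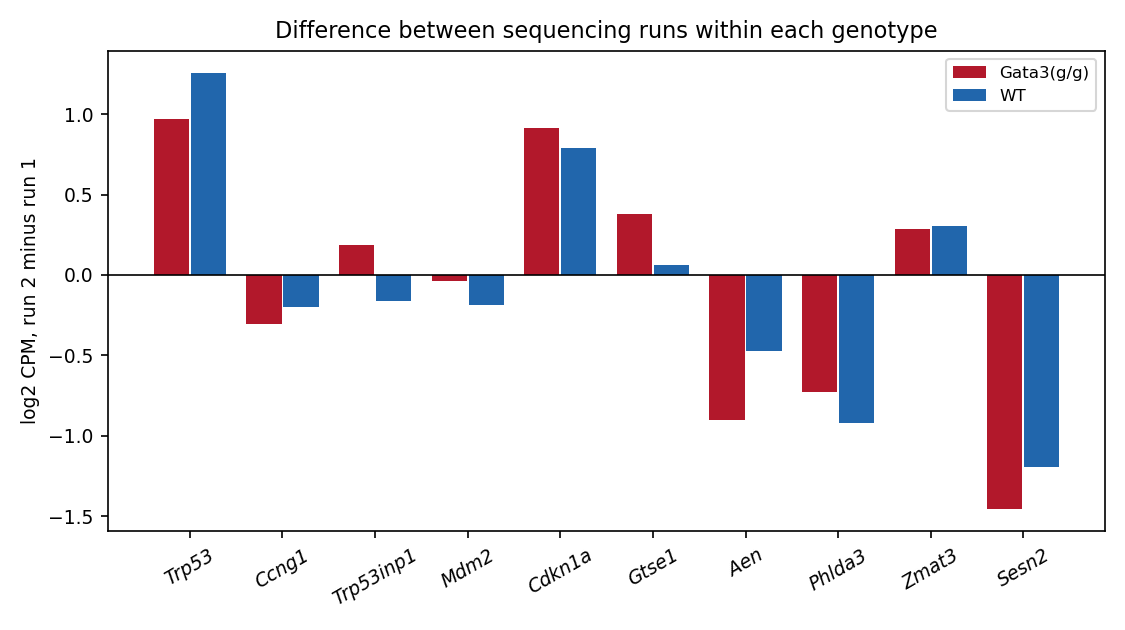
Difference in log2 CPM between run 2 and run 1 within Gata3(g/g) (red) and within WT (blue), with each bar 1 library minus another and genes ordered by mean FPKM. Trp53 is 0.97 and 1.26 higher in run 2, Cdkn1a is higher and Aen, Phlda3 and Sesn2 lower in both genotypes, while Trp53inp1 and Mdm2 stay within 0.19 of 0.

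The wider pathway was read from lists of genes with known places in it. Of 17 tested regulators of p53, which include the kinases ATM, ATR, CHEK1 and CHEK2 and the MDM2 partner MDM4, 0 rose, 1 fell and 16 did not pass by edgeR with the block, a share near the 6.9% of all genes. The one that fell was Rpl11, a ribosomal protein gene whose product can bind MDM2, at 1829 and 2045 FPKM in Gata3(g/g), against 2646 and 3574 FPKM in WT. Rpl11 differed by -0.67 ± 0.178 on the log2 scale (SE, adjusted p = 0.0313), and as a ribosomal protein gene it can share fragments with pseudogenes. With the block Rpl11 passed by DESeq2 (adjusted p = 0.000822) but not by limma (0.301), and its q-value in the authors' deposited table was 0.0535. Rchy1, a ubiquitin ligase gene of the p53 pathway, had the next largest difference, 0.29 (adjusted p = 0.301). Mdm4, the MDM2-related inhibitor gene, stood at 10.4 and 11.3 FPKM in Gata3(g/g), against 10.8 and 12.5 FPKM in WT, and was singled out after its values were seen. The list's median log2 fold change was 0.03, against 0.01 for all genes.

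Of 11 tested p53 targets of arrest and DNA repair, 0 rose, 1 fell and 10 did not pass with the block, against 6.9% passing of all genes. Plk3, a stress-response kinase gene, fell: it was at 1.55 and 0.489 FPKM in Gata3(g/g), against 2.96 and 1.23 FPKM in WT. Within each run the Gata3(g/g) library was the lower, although the genotypes overlapped (-1.09 ± 0.286 on the log2 scale, SE, with an edgeR adjusted p of 0.0294). With the block neither DESeq2 (adjusted p = 0.130) nor limma (0.207) called Plk3, and without the block its log2 fold change ran from -2.09 without Gata3(g/g) replicate 1 to -0.28 without WT replicate 1, with -1.51 when WT replicate 2 was left out and -0.43 when Gata3(g/g) replicate 2 was. Gadd45a, a growth arrest gene, differed by -0.48 on the log2 scale (adjusted p = 0.368), by -1.03 within run 1 and by 0.16 within run 2. The list's median was -0.11.

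Targets of apoptosis passed in both directions: of 10 tested, 2 rose, 2 fell and 6 did not pass with the block, where 6.9% of all genes passed. Pmaip1, which encodes the BH3-only protein NOXA, rose, with 2.56 and 1.28 FPKM in Gata3(g/g), against 1.59 and 0.235 FPKM in WT. On the log2 scale the rise was 1.32 ± 0.350 (SE), with an edgeR adjusted p of 0.0302. It was 0.69 within run 1 and 2.33 within run 2, where the WT library held 16 fragments of Pmaip1. Bbc3, which encodes the BH3-only protein PUMA, fell, with 0.890 and 0.596 FPKM in Gata3(g/g), against 2.51 and 1.15 FPKM in WT (-1.26 ± 0.333 on the log2 scale, SE, with an edgeR adjusted p of 0.0301). The genotypes overlapped for Pmaip1 but not for Bbc3. By edgeR with the block these 2 death genes thus differed in opposite directions. Without the block neither passed (edgeR adjusted p = 0.9997 for each).

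Casp1, the inflammatory caspase gene, was higher in both Gata3(g/g) libraries, at 23.6 and 26.9 FPKM, against 14.7 and 17.4 FPKM in WT. It rose by 0.66 ± 0.137 on the log2 scale (SE), with an edgeR adjusted p of 0.00656 under the block. Siva1, whose product binds the costimulatory receptor CD27 and promotes apoptosis, stood at 110.3 and 171 FPKM in Gata3(g/g), against 152 and 298 FPKM in WT. It fell by 0.53 ± 0.124 (SE, adjusted p = 0.0156) on the log2 scale, and its genotypes overlapped because run 2 was the higher in both. Casp1 and Siva1 also passed by DESeq2 with the block (adjusted p = 0.0232 and 0.0337), whereas Pmaip1 (0.0713) and Bbc3 (0.172) did not. By limma with the block none of these 4 passed, with adjusted p of 0.141 for Casp1, 0.229 for Siva1, 0.236 for Pmaip1 and 0.250 for Bbc3. In the authors' deposited table the q-values were 0.0203 for Casp1, 0.0477 for Siva1, 0.0784 for Pmaip1 and 0.0847 for Bbc3. Without the block, leaving out WT replicate 2 gave Pmaip1 a log2 fold change of 0.29 and Siva1 of -0.24, leaving out WT replicate 1 gave Pmaip1 2.996, Siva1 -0.81 and Bbc3 -0.65, and leaving out Gata3(g/g) replicate 1 gave Pmaip1 0.48. The list's median log2 fold change was 0.15.

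Of 10 tested targets of metabolism and other functions, 0 rose, 1 fell and 9 did not pass with the block, again beside 6.9% of all genes. Ddit4, which encodes the mTORC1 inhibitor REDD1, fell, at 5.83 and 5.35 FPKM in Gata3(g/g), against 8.29 and 9.19 FPKM in WT. The difference of -0.64 ± 0.173 on the log2 scale (SE), with an edgeR adjusted p of 0.0347, did not pass with the block under DESeq2 (adjusted p = 0.187) or limma (0.188), with no scaling beyond total counts (0.0568) or with a mean FPKM of at least 5 (0.0690). Dcxr, a carbonyl reductase gene, differed by 0.58 on the log2 scale (adjusted p = 0.133). Of 20 tested cell cycle genes that p53 lowers through p21 and the DREAM repressor complex, 0 passed with the block or without it, 0 of them at an unadjusted p under 0.05 without it. The largest differences were -0.38 for the mitotic kinase gene Plk1 (adjusted p = 0.0939) and -0.38 for the S-phase factor gene E2f1 (adjusted p = 0.149). By DESeq2 with the block the adjusted p was 0.302 for Plk1 and 0.532 for E2f1. The unadjusted edgeR p with the block was 0.00964 for Plk1, 0.0217 for E2f1 and 0.0230 for Mybl2 (-0.34), and above 0.05 for the others. Of the 20, 9 had a log2 fold change above 0. The median of the 20 was -0.02.

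**Figure D4:**
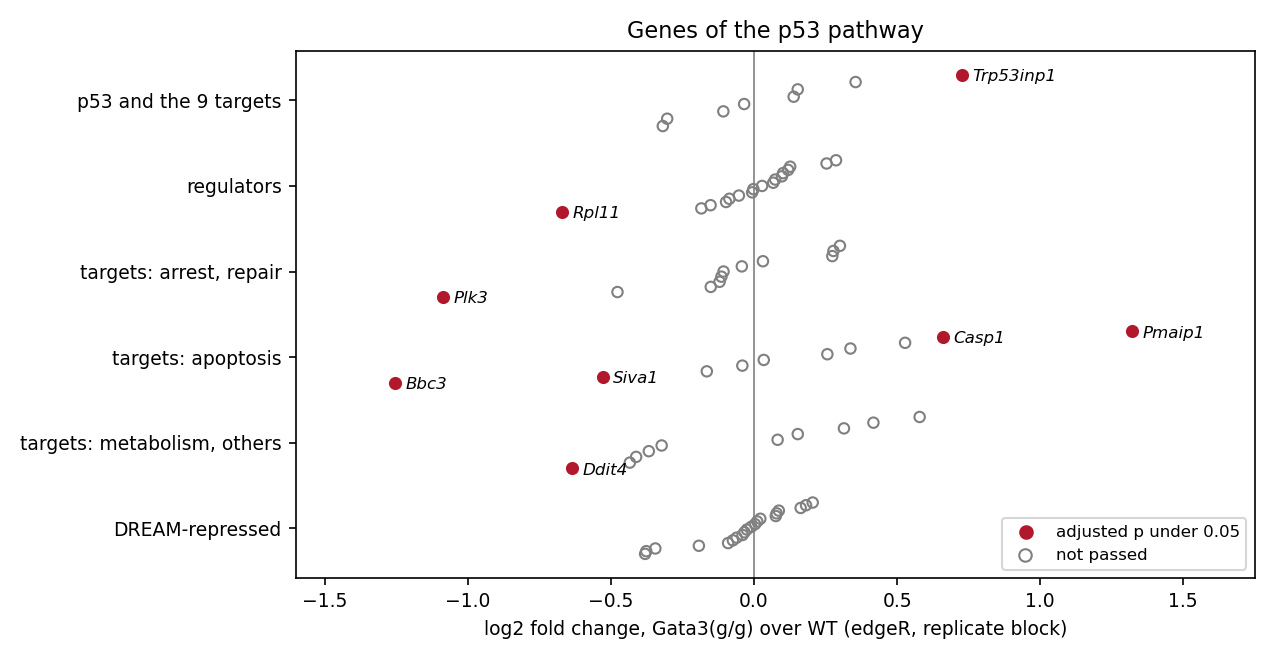
Log2 fold change of Gata3(g/g) over WT by edgeR with the replicate block for each tested gene of the p53 set and of 5 pathway lists, with each point a gene, spread vertically by rank within its list. Filled red points passed at an adjusted p under 0.05: Trp53inp1, Casp1 and Pmaip1 were higher, and Rpl11, Plk3, Bbc3, Siva1 and Ddit4 were lower.

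Markers of later or other cells were read beside these differences. Of 4 tested genes of double-positive thymocytes, Cd8b1 and Cd8a rose and 2 did not pass with the block; the summed FPKM of the 5 on the list was 29.7 and 13.3 in Gata3(g/g), against 38.3 and 7.25 in WT. Cd8b1 stood at 7.61 and 7.22 FPKM in Gata3(g/g), against 3.63 and 1.11 FPKM in WT. Of 4 tested myeloid genes Lyz2 rose and 3 did not pass, with log2 fold changes of -0.43 for Cd68, -0.08 for S100a8 and -0.80 for S100a9. In run 1, S100a8 and S100a9 each had 0 fragments in Gata3(g/g) and 6 in WT. Within run 2, S100a8 differed by 0.21 and S100a9 by -0.50 on the log2 scale. Cd68 differed by 0.16 within run 1 and by -1.03 within run 2. The list of 8 summed to 22.2 and 66.1 FPKM in Gata3(g/g), against 14.3 and 56.0 FPKM in WT, and the median log2 fold change of the 4 tested was -0.26. The 7 B-lineage genes summed to 32.0 to 39.4 FPKM in Gata3(g/g), against 30.4 to 31.4 FPKM in WT, led by Cd79b, and 5 of the 7 stayed under 1 FPKM in every library. The 7 stromal genes summed to 8.75 to 10.1 FPKM in Gata3(g/g), against 7.54 to 12.9 FPKM in WT, and 6 of them stayed under 1 FPKM throughout. Of 6 tested erythroid genes Hba-a2 rose and 5 did not pass, and of 7 tested immediate-early genes Jun rose, Fosb, Junb and Egr1 fell and 3 did not pass. Hba-a2 had 0 fragments in both libraries of run 1, so that its value rests on run 2 alone, with 414 fragments in Gata3(g/g) against 115 in WT. By DESeq2 with the block, Hba-a2 (adjusted p = 0.981), Jun (0.601) and Cd8a (0.0574) did not pass. The part of these cells and genes in the differences of Trp53inp1 and of the pathway genes was not tested.

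Genes whose pattern over the 4 libraries was most like that of a member were found by the root mean square distance of mean-centred log2(FPKM + 1) values, among the 10224 tested genes. For Trp53inp1 they were S100a10 (distance 0.0297), Smpdl3a (0.042) and Jakmip1 (0.0514). S100a10 stood at 117 and 128 FPKM in Gata3(g/g), against 78.6 and 68.1 FPKM in WT. For Trp53 they were Eif5b (0.024), Nsa2 (0.0275) and 4930526I15Rik (0.0376). Eif5b, a translation initiation factor gene, stood at 12.7 and 24.5 FPKM in Gata3(g/g), against 14.2 and 34.8 FPKM in WT, higher in run 2 in both genotypes as Trp53 was.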

How the data were processed

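Column-purified, DNase-treated RNA went into 4 libraries (NuGEN Encore Complete), per the labels' protocols. The submitters' processing notes name mm10, Cuffdiff 2.1.1, Bowtie2 2.1.0 and TopHat2 2.0.8b; the sources used here do not give the gene annotation, read length or strand setting. Per the file headers, the authors deposited an estimated count of fragments and an FPKM value per gene and library, and a comparison table holding mean FPKM by genotype with the p-value, q-value and log2 ratio of each gene. Counts were rounded to whole numbers (97.7% to 98.9% lay within 0.01 of one). Of 23285 genes, 3 were left out because their status marks a locus with too many fragments, and 5 failed estimates were kept. Rounded counts per library summed to 26901913 and 18035342 in Gata3(g/g), and to 21159909 and 14331705 in WT. A floor of 3 fragments equals 0.112 to 0.209 CPM and covers counting error only.

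The 10224 genes averaging 1 FPKM or more over the libraries were tested with edgeR 4.0.16 (R 4.3.3), quasi-likelihood F test, TMM scaling (factors 0.983 to 1.02), two-sided, Benjamini-Hochberg adjustment over all of them at 0.05. The designed model held the genotype alone (2 residual degrees of freedom). The run identifiers in the labels pair the replicates: across genes, the run difference in WT and in Gata3(g/g) correlated at 0.754 (Pearson) and 0.758 (Spearman), with genes not independent replicates. Values with the replicate block are therefore the ones mainly printed for the members and the listed genes. That model has 1 residual degree of freedom, so its p-values lean on spread pooled over genes. Of the 10 genes, it changes the call of Trp53inp1 alone. In the designed model the edgeR adjusted p was 0.894 for Trp53inp1. It was 0.9997 for each other tested member and for each pathway gene that passed with the block. The run test used the model with genotype and run. The SE was derived from the edgeR fit, as the absolute log2 fold change before shrinkage over the square root of the F statistic. Intervals are that unshrunken fold change plus or minus a t quantile times the SE, whereas the printed log2 fold changes are edgeR's shrunken ones. Differences within a run are log2 CPM with a prior count of 2. DESeq2 1.42.0 and limma 3.58.1 (pseudocounts 1 and 0.1) were alternatives. The fits were also tried on counts simulated with the spread estimated from the model with genotype and run. Such counts cannot test whether that spread suits these libraries.

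All 10 genes are described. Of each pathway list, genes passing with the block are named, and where fewer than 2 passed, also those with the largest absolute change, up to 2. The genes, lists and tests were chosen with earlier results of these data known, so none is independent evidence. Of the listed genes, 3 were found under older symbols (Rfwd2 for Cop1, Lrdd for Pidd1 and 9630033F20Rik for Tigar). Gene positions are the authors' on mm10, written from 1. Promoter sequences are RefSeq's for GRCm38.p6.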

Additional observations from a re-analysis of the deposited data

How the results depend on the processing

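The replicate block decided the calls between genotypes. Without it 0 genes and 0 of the 10 p53 genes were called, also with DESeq2's size factors (RLE), with no scaling beyond total counts and with a mean FPKM of at least 5; with no filter 58 genes were called, with DESeq2 88 and with limma 5 at either pseudocount, none of them among the 10. With the block 705 genes were called, or 725 with RLE factors, 674 with no scaling, 988 with no filter, 348 with a mean FPKM of at least 5, 417 with DESeq2, and 18 and 42 with limma at pseudocounts 1 and 0.1. Trp53inp1 was the 1 gene of the 10 called with the block under each of these except limma, which called 0. Without the block, leaving out 1 library gave 1 to 11 called genes and 0 of the 10. The run comparison gave 3560 genes and 3 of the 10, or 2263 and 2 with DESeq2, 4224 and 6 with no filter, and 751 and 2 with genotype left out.

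The direction of Trp53inp1 held under all alternatives run, from 0.63 to 0.82 on the log2 scale with 1 library left out. With 1 library left out, which mixes run and genotype, the log2 fold change ranged from -0.92 to 0.41 for Trp53, -0.62 to 0.36 for Cdkn1a, -0.019 to 0.29 for Ccng1, -0.085 to 0.88 for Phlda3, -0.81 to 0.10 for Aen, -0.22 to 0.16 for Gtse1, -1.27 to 0.48 for Sesn2, -0.077 to 0.67 for Rchy1 and -0.94 to 0.052 for Gadd45a. Gtse1 also turned to 0.028 without scaling beyond total counts, and to 0.014 with the block as well. Depth limits Sesn2, Zmat3 and Phlda3 most. The cause of these changes was not tested.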

Other observations

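The table held 5 further tested genes whose symbols begin with Trp53 and that were on none of the lists. They were chosen by name after values had been seen, and none passed with the block (edgeR) or without it. Trp53bp2, which encodes the p53-binding protein ASPP2, came closest, at 7.65 and 8.54 FPKM in Gata3(g/g), against 9.59 and 13.01 FPKM in WT. It was lower in Gata3(g/g) within both runs, and differed by -0.46 ± 0.138 on the log2 scale under the block (SE, edgeR adjusted p = 0.0549). Trp53i11 stood at 68.0 and 53.9 FPKM in Gata3(g/g), against 51.7 and 44.0 FPKM in WT, a difference of 0.35 ± 0.124 on the log2 scale under the block (SE, edgeR adjusted p = 0.107).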
